A study of Homo sapiens with 8 samples.

Results

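The regions described here are stretches of the HL-60 genome where trimethylated lysine 4 of histone H3 (H3K4me3) was called after all-trans retinoic acid (ATRA) and was not called without it. Peaks of the 4 H3K4me3 libraries were merged where they overlapped or touched, which gave 19906 merged regions. The ATRA-only regions were selected on the presence of these same peaks, as the merged regions with a peak in both ATRA libraries and in neither control library. There were 606 of them, 3.04% of all merged regions. The opposite pattern, a peak in both control libraries and in neither ATRA library, was found in 151 regions (0.759%). That pattern needs a peak in the control library numbered 2, which had the fewest peaks of the 4 libraries (13241). A peak in that library alone was found in 188 regions, and in the other control library alone in 1735. The 606 and 151 regions are therefore not a measure of gain against loss. Because the H3K4me3 peaks chose the regions, their H3K4me3 values are given as a description without a test.

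HL-60, an established line of human promyelocytic leukemia, matures towards granulocytes under ATRA, a ligand of the retinoic acid receptors. ATRA-treated cells received 1 µM ATRA in ethanol for 4 days, and control cells received the same volume of ethanol, with medium and agent renewed on day 2. Each mark was measured by ChIP-seq in 2 ATRA and 2 control libraries, so that 8 libraries were used. No genetic change is labeled in either group. The labels do not say whether the replicates came from separate cultures, so a p-value measures only the spread between these libraries. In such bulk samples, a mark in more cells and more of a mark per cell cannot be told apart.

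H3K4me3 is placed by the SET1 and MLL methyltransferase complexes and marks the start of active or poised genes, where it usually forms a peak on both sides of the transcription start site (TSS). H3K27ac, acetylated lysine 27 of the same histone, marks active promoters and active enhancers. At enhancers, H3K4me3 is typically weak or absent and monomethylation prevails, so that a stretch of H3K4me3 away from an annotated TSS is a less common arrangement than one across a promoter.

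The files hold peak positions and no read counts, so the depth of the libraries is unknown and no interval from counts can be given for a single region. The H3K4me3 libraries had 16258 and 16487 peaks after ATRA and 16160 and 13241 peaks in control cells. The control library numbered 2 had the fewest peaks and called few regions of its own. Without it, the rule found 635 regions. The control library numbered 1 carried most of the selection, and without it 1801 regions passed. With 1 ATRA library in place of both, 2904 regions passed without replicate 1 and 2290 without replicate 2, and a TSS lay inside 8.26% and 9.39% of them. H3K27ac libraries differed more, with 28200 and 39332 peaks after ATRA and 15457 and 29614 in control cells. Among the markers of HL-60 promyelocytes, MPO, CD33, SPI1, CEBPA, CEBPE and MYB had a TSS under H3K4me3 in all 4 libraries. PRTN3 had its TSS under H3K4me3 in both ATRA libraries alone, and ELANE and AZU1 had none in any library.

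The DNA of 5 of the longest regions is shown first, since the regions differ from ordinary promoters in their base composition. Windows of 300 bases were read from GRCh37, which is the hg19 build of the peak files. For genes, the window runs from 270 bases before the TSS of the canonical transcript to 30 bases from it, on the strand of the gene. Capitals mark GAGGAA or its reverse complement TTCCTC, the core letters of the PU box bound by the myeloid factor PU.1 (the product of SPI1). The promoters are those of LILRA5 (chr19:54824407-54824706, minus strand), CEACAM1 (chr19:43032604-43032903, minus strand), CYP4F3 (chr19:15751437-15751736, plus strand) and S100A9 (chr1:153330060-153330359, plus strand).
LILRA5: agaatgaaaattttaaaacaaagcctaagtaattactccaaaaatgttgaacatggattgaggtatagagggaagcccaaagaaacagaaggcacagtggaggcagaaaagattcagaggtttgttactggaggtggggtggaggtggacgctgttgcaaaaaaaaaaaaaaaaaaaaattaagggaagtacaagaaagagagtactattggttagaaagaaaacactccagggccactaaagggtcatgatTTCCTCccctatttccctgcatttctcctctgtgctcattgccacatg
CEACAM1: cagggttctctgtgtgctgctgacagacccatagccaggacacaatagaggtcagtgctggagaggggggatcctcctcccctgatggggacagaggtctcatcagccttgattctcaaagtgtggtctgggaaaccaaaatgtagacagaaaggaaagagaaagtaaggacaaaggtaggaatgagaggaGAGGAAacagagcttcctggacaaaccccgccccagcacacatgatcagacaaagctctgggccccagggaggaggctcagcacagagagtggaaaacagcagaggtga
CYP4F3: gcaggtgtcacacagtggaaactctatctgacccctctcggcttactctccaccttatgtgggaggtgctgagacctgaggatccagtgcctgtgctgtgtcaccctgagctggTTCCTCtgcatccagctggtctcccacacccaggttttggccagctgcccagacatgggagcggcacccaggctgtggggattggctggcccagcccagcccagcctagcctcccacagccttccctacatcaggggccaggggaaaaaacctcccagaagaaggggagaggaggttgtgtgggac
S100A9: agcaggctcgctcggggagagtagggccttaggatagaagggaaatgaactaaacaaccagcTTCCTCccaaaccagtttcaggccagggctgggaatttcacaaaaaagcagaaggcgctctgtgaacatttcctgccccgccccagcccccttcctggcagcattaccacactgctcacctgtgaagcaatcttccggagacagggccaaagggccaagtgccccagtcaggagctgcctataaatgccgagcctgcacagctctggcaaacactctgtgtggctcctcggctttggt
The center of a long distal region lies between genes near ARHGAP12 (chr10:32239934-32240233, plus strand), and its window does not hold these letters.
Distal, ARHGAP12: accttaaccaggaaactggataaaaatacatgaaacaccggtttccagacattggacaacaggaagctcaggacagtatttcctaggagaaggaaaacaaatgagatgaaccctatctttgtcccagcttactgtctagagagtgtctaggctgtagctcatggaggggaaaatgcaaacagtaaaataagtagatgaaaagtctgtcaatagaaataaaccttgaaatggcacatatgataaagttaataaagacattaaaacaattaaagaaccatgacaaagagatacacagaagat

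The windows hold few CpG dinucleotides. LILRA5 and CEACAM1 had 1 CpG each in 300 bases, CYP4F3 had 2 and S100A9 had 7. The windows of SLC2A5, SEMA6B and CCL2, whose regions were of similar rank in length, are not shown. They had 3, 11 and 4 CpG, with PU box letters in SEMA6B and CCL2 and none in SLC2A5. Of the genes with a TSS in an ATRA-only region, 36 had their canonical TSS there. The median over these 36 promoters was 3.5 CpG with a GC content of 52.3%, against 22 CpG and 63.0% over the promoters of all 19812 protein-coding genes with a window. PU box letters were present in 22 of the 36 promoters (61.1%) and in 27.5% of all promoters. Among promoters with at most 6 CpG, they were present in 17 of 29 (58.6%) and in 33.8% of 4123. The looser C/EBP motif, written TTGCNNAA or its reverse complement, was present in 6 of the 36 (16.7%) and in 8.57% of all promoters, or 15.9% of those with at most 6 CpG. These are matches of letters on both strands and were not tested. Over the central 300 bases of all 606 regions, PU box letters were found in 30.0%, close to the 28.2% of all merged regions, while the C/EBP motif was found in 18.0% and 13.5%. The latter motif was as frequent in regions with both ATRA and 1 control peak (18.4%) and in distal regions of all merged regions (17.3%). The central windows had a median GC content of 43.0% and 3 CpG, against 53.3% and 10 CpG in regions called in all 4 libraries, most of which hold a TSS. Like regions differed less, with 46.3% and 4 CpG in regions with both ATRA and 1 control peak. Distal regions had 42.3% and 2 CpG if ATRA-only and 44% and 3 CpG over all merged regions.

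**Figure D1:**
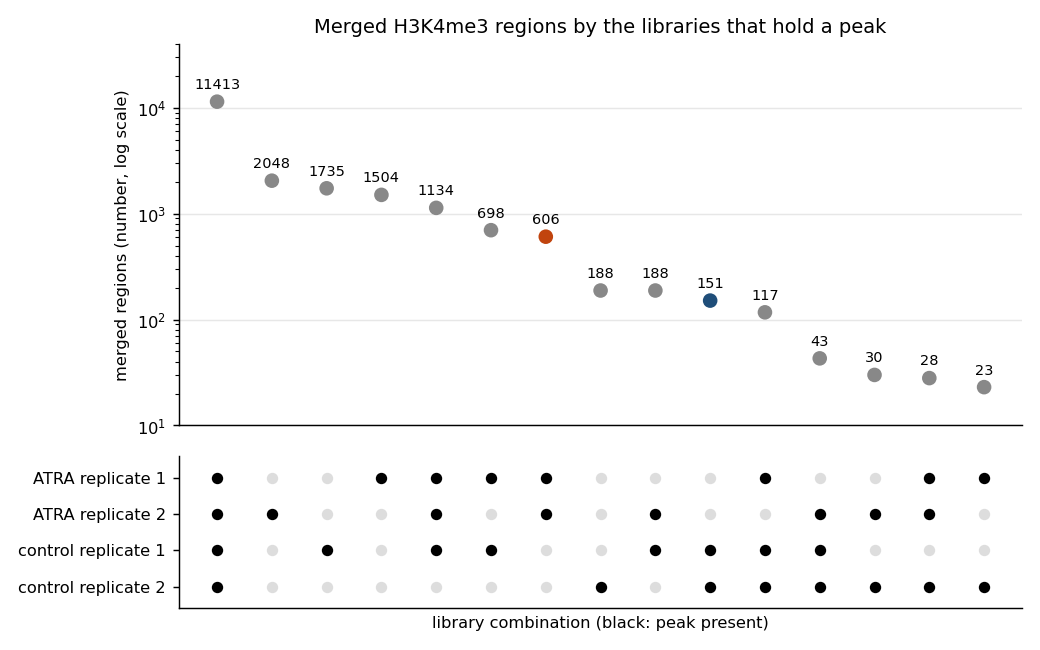
Number of merged H3K4me3 regions (vertical axis, log scale) for each combination of libraries with a peak, shown by the black dots below. The 606 ATRA-only regions are in orange and the 151 control-only regions in blue, beside 11413 regions with a peak in all 4 libraries.

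The ATRA-only regions were short. Their median length was 1019 bp (range 213 to 11989 bp), against 1492 bp for the 1162 regions with a peak in both ATRA libraries and 1 control library and 5688 bp for the 11413 regions in all 4 libraries. At least 2000 bp was reached by 98 of them (16.2%), and at least 5000 bp by 16. The stretch covered by the peaks of both ATRA libraries was shorter, with a median of 415.5 bp. In 282 regions (46.5%), the ATRA libraries shared at least 50% of the merged length. The median covered length was 790 bp in ATRA replicate 1 and 665.5 bp in ATRA replicate 2, and 379 of the 606 regions (62.5%) were covered further in replicate 1. The authors' −log10 q had a median of 13.6 and 11.4 in these regions, slightly below the 15.5 and 12.7 of all peaks of the same libraries, and it reached 5 in both libraries in 348 regions (57.4%).

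A minority of the ATRA-only regions held a TSS. A TSS of any annotated transcript lay inside 109 of them (18.0%), another 130 (21.5%) had a TSS within 2 kb, and 367 (60.6%) were distal, which here means more than 2 kb from the nearest TSS. With a limit of 5 kb, the distal share was 35.0%. Among regions in all 4 libraries, 88.6% held a TSS and 9.19% were distal. The regions just outside the rule, with 1 control peak, had a distal share of 60.7%, and the control-only regions 53.6%. The distal share was thus close to that of the neighboring pattern. By place in genes, 182 of the 367 distal regions lay in introns of protein-coding genes without touching an exon, 49 touched an exon of such a gene, 28 lay in non-coding genes and 108 between genes. The distal regions had a median distance of 6035 bp to the nearest TSS, 131 were more than 10 kb away and 21 more than 50 kb away.

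Regions with a TSS were longer than the others. Their median length was 1876 bp, with 823 bp shared by both ATRA libraries, against 967 and 387 bp in the distal regions and 889.5 and 352.5 bp in those with a TSS within 2 kb. They were also farther from H3K4me3 of control cells, at a median of 20302 bp from the nearest control peak, compared with 6996 bp for the distal regions and 2254 bp for those with a TSS within 2 kb. Over all 606 regions, 111 (18.3%) had a control peak within 1 kb and 292 (48.2%) had none within 10 kb. New regions thus included both stretches next to H3K4me3 that control cells already had and stretches far from any.

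**Figure D2:**
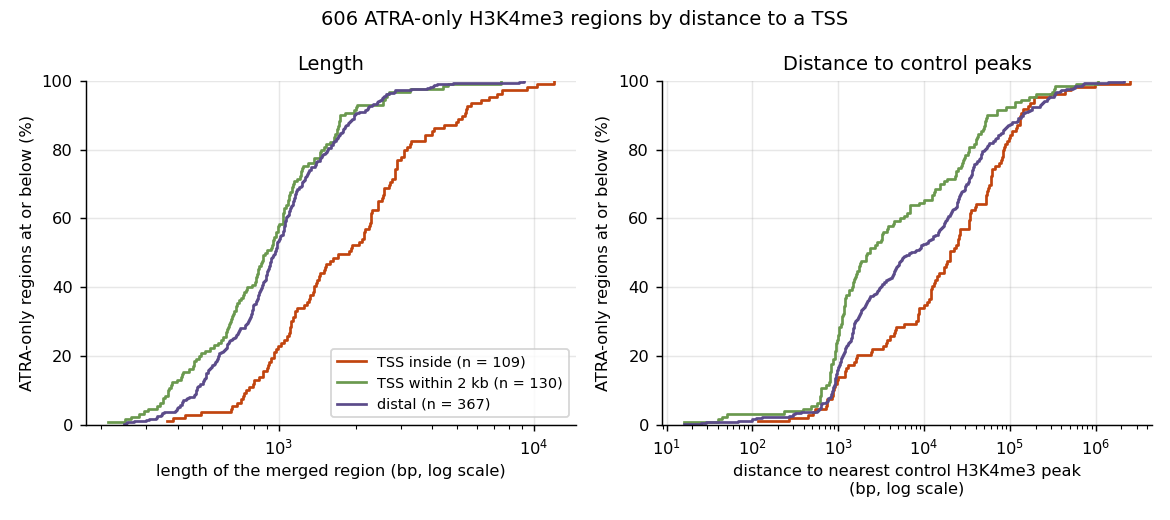
Cumulative share of ATRA-only regions by length of the merged region (left, bp, log scale) and by distance to the nearest control H3K4me3 peak (right, bp, log scale), one line for each place relative to a TSS. Regions with a TSS inside (median 1876 bp) sit to the right of the distal regions (median 967 bp) in both panels.

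At the lower edge of the rule, the regions in EHMT2 and near ATP5MFP5 each lay 16 bp from a control peak, and the third closest, in MBP, lay 25 bp from one. The EHMT2 region (chr6:31856675-31857714) was covered over 294 and 1040 bp in ATRA replicates 1 and 2. The ATRA libraries shared the least in 3 regions, with 2 bp near CIR1P3 and 3 bp each near CFLAR and ACTR6P1. Just outside the rule, the regions with the smallest control peaks lay nearest to AUNIP and to 2 genes known by identifier, ENSG00000215869 and ENSG00000278684. Each had 200 bp of control replicate 1, against 725 and 282 bp, 870 and 444 bp, and 1932 and 615 bp in the ATRA replicates. Of the 1162 regions with 1 control peak, 1134 had it in replicate 1 and 28 in replicate 2.

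A TSS of a protein-coding gene lay inside 83 of the ATRA-only regions, a lncRNA TSS alone inside 22, and other types alone inside 4. The 83 regions held TSS of 82 protein-coding genes, 0.408% of all 20098. For 59 of the 82 genes, a TSS lay under the peaks of both ATRA libraries, and for the others under 1 of them. The genes fell into groups of nearly equal size. In 40 genes no TSS was under H3K4me3 in a control library, and their regions had a median length of 2734 bp, with 29 of 40 reaching 2000 bp. In the other 42 genes, another TSS of the same gene already carried a control peak, and the median was 1346.5 bp, with 16 of 42 reaching 2000 bp. Across the genome, 353 protein-coding genes had a TSS under both ATRA peaks and under no control peak, and for 294 of them that TSS lay in a merged region that touched a control peak elsewhere, so that a gained TSS was usually counted with an older neighbor.

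The 15 promoter regions with the longest stretch shared by both ATRA libraries had H3K27ac in both ATRA libraries throughout. This was so in 57.8% of the 83 regions with a protein-coding TSS and in 58.0% of all merged regions. The 15 were chosen for length, and the part of length in this count was not tested. Of the 15, 13 were covered further by H3K4me3 in ATRA replicate 1. The regions of FGR, DNAJB12, RABGAP1L and DEF8 held a TSS of the gene other than that of its canonical transcript. H3K4me3 values below are the bp of a region under peaks, and both control libraries are at 0 in each by the rule. The longest was at FGR, which encodes a Src family tyrosine kinase of myeloid cells (chr1:27944280-27956268). It was covered over 11082 and 8282 bp in ATRA replicates 1 and 2. H3K27ac covered 11183 and 11989 bp after ATRA and 0 and 2606 bp in control replicates 1 and 2, so that the ATRA and control libraries did not overlap. The nearest control H3K4me3 peak was 10840 bp away.

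SLC2A5, the fructose transporter GLUT5, was next (chr1:9120492-9130787). Its H3K4me3 covered 7277 and 10296 bp, and its H3K27ac 7913 and 9655 bp after ATRA against 0 and 617 bp in control cells. The groups again did not overlap, and the nearest control H3K4me3 peak was 54946 bp away.

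LILRA5, an activating leukocyte immunoglobulin-like receptor, had H3K4me3 over 9384 and 7036 bp (chr19:54816834-54826217). H3K27ac was less extensive there, with 1101 and 4743 bp after ATRA and none in either control library. CEACAM1, an adhesion molecule of leukocytes and epithelia, had 7198 and 6348 bp of H3K4me3 (chr19:43026865-43034062). Its H3K27ac covered 6301 and 7198 bp after ATRA and 0 bp in both control libraries. Thus LILRA5 and CEACAM1 had both marks in the ATRA libraries alone, and LILRA5 had the larger difference between its ATRA libraries in H3K27ac.

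SEMA6B, a transmembrane semaphorin, was covered over 7309 and 6187 bp by H3K4me3 (chr19:4553879-4561406). Its H3K27ac was 4291 and 4379 bp after ATRA and 0 bp in the controls. Unlike the genes above, SEMA6B had another TSS under control H3K4me3, and the nearest control peak was 12065 bp from the region. Another TSS under control H3K4me3 was also found for DNAJB12, RABGAP1L and DEF8, which are described below. CCL2, a chemokine that attracts monocytes, had 6044 and 4502 bp of H3K4me3 (chr17:32579855-32586041). H3K27ac covered its whole region of 6187 bp in both ATRA libraries and 0 and 642 bp of it in the controls. The nearest control H3K4me3 peak was 119850 bp from CCL2.

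Neutrophils are known for a high content of calprotectin and for the turnover of leukotriene B4. CYP4F3, which inactivates leukotriene B4, had 3978 and 5422 bp of H3K4me3 (chr19:15750521-15755942), with H3K27ac over all 5422 bp in both ATRA libraries and none in controls. S100A9, a subunit of the calcium-binding protein calprotectin, had 5359 and 3683 bp (chr1:153328520-153333878), with H3K27ac over all 5359 bp after ATRA and over 0 and 200 bp in controls. Its partner S100A8, named after its values were seen, had a separate region of 3755 and 1715 bp (chr1:153361384-153365138), with 2039 and 3255 bp of H3K27ac after ATRA and none in controls. Both calprotectin genes lay more than 100 kb from any control H3K4me3 peak, at 172280 bp for S100A9 and 141020 bp for S100A8.

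CYBB, the catalytic subunit gp91phox of the NADPH oxidase, had 5667 and 3605 bp of H3K4me3 (chrX:37638102-37643768). Its H3K27ac was 4953 and 5667 bp after ATRA, and the controls differed from each other with 0 bp in replicate 1 and 3450 bp in replicate 2. CFP, the complement regulator properdin, had 2858 and 2337 bp (chrX:47486965-47489822). H3K27ac covered all 2858 bp of it in both ATRA libraries and none in the controls, so that the groups were apart at CFP by its whole length.

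The other members of the 15 were more varied. SELP, the adhesion receptor P-selectin best known from platelets and endothelium, had 5485 and 3083 bp of H3K4me3 (chr1:169594682-169600166), with H3K27ac over all 5485 bp after ATRA and none in controls. TMEM92 had 5021 and 3270 bp (chr17:48349820-48354840) and only 1120 and 1310 bp of H3K27ac after ATRA, with none in controls. DEF8 had 2504 and 2355 bp (chr16:90023367-90025924), with 1066 and 1090 bp of H3K27ac after ATRA and none in controls. In TMEM92 and DEF8, as in LILRA5 and SEMA6B, H3K27ac covered less of the region than H3K4me3 did in both ATRA libraries.

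DNAJB12, a co-chaperone of the endoplasmic reticulum, and RABGAP1L, a Rab GTPase-activating protein, differed from these. DNAJB12 had 4056 and 3059 bp of H3K4me3 (chr10:74093730-74097785), lay 743 bp from a control H3K4me3 peak, and carried H3K27ac in all libraries, over 4056 bp in both ATRA libraries and 3091 and 2728 bp in the controls. RABGAP1L had 4423 and 2566 bp of H3K4me3 (chr1:174933638-174938060). Its H3K27ac was 2766 and 4423 bp after ATRA and 409 and 3563 bp in controls, so that the groups overlapped.

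**Figure D3:**
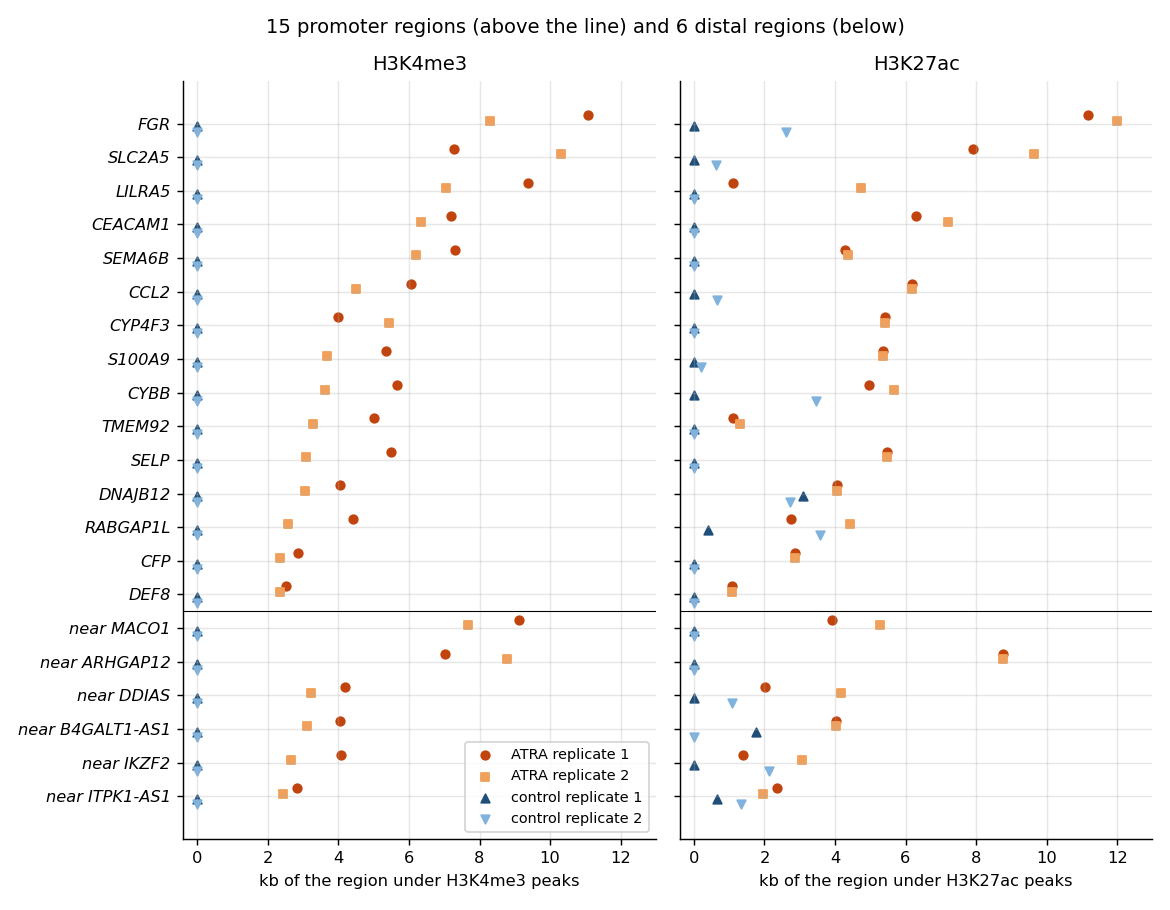
Length of each named region under H3K4me3 peaks (left, kb) and H3K27ac peaks (right, kb) in each library, for the 15 promoter regions above the line and the 6 distal regions below it. All 15 promoter regions had H3K27ac in both ATRA libraries, and in 8 of them both control libraries were at 0. Over the 83 ATRA-only regions with a protein-coding TSS, these shares were 57.8% and 28.9%.

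Of the 20 regions with the longest shared stretch, 12 held a protein-coding TSS and 5 were distal. The longest distal region lay in the body of MACO1, touched an exon and was 6100 bp from the nearest TSS (chr1:25781484-25790594). H3K4me3 covered 9111 and 7660 bp, and H3K27ac 3928 and 5274 bp after ATRA and none in the controls. The second lay between genes, 17898 bp from the TSS of ARHGAP12, a GTPase-activating protein (chr10:32235702-32244466). It had 7013 and 8765 bp of H3K4me3, with H3K27ac over all 8765 bp in both ATRA libraries and none in the controls. These were the 2 of the 6 distal regions without control H3K27ac.

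In the other four, H3K27ac was also found in control cells. The region in PRCP near DDIAS (chr11:82599322-82603500) had 4179 and 3212 bp of H3K4me3, with 2003 and 4179 bp of H3K27ac after ATRA and 0 and 1093 bp in controls. The one in B4GALT1 (chr9:33156880-33160918) had 4039 and 3109 bp, with H3K27ac over 4039 bp in both ATRA libraries and 1747 and 0 bp in controls. Both kept their ATRA values above their control values.
The region in IKZF2, a zinc finger factor of the Ikaros family (chr2:213993866-213997929), had 4064 and 2664 bp, and its H3K27ac of 1397 and 3054 bp after ATRA overlapped the 0 and 2137 bp of the controls. The region in ITPK1, an inositol phosphate kinase (chr14:93550074-93552905), had 2832 and 2440 bp, with 2359 and 1961 bp of H3K27ac after ATRA and 642 and 1334 bp in controls.

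Of 345 genes in 18 lists of myeloid function, cell identity and other tissues, 14 (4.06%) had a TSS in an ATRA-only region, beside the 0.408% of all protein-coding genes. The lists were chosen with earlier results of these data known, so the counts are a description. Besides CYBB, FGR, CEACAM1 and LILRA5, the 14 genes were CCR3 and CCRL2, CEACAM4 and ITGAX, CLEC4E, TLR1, CSF1R, and OAS3, GBP2 and GBP3. By list, this was 1 of 6 genes of the NADPH oxidase, 2 of 18 chemoattractant receptors, 3 of 18 adhesion and surface enzyme genes, 2 of 32 Fc, LILR, Siglec and C-type lectin receptors, 1 of 16 innate sensors, 1 of 12 cytoplasmic tyrosine kinases, 1 of 19 cytokine receptors, 1 of 12 monocyte and macrophage markers (CSF1R, which is in both of these lists) and 3 of 37 interferon-stimulated genes.

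The remaining 9 lists had none. They were the 22 secondary and tertiary granule genes, the 12 primary granule genes, the 29 retinoid genes, the 35 myeloid transcription factors, the 18 progenitor genes, the 25 genes of DNA replication and mitosis, and the markers of lymphocytes (13), of erythroid cells and megakaryocytes (11) and of other tissues (14). The lists with none were in different states. Of the myeloid transcription factors, 30 of 35 had a TSS in a region called in all 4 libraries, as did all 25 replication and mitosis genes. Of the granule genes of the secondary and tertiary kind, 15 of 22 had no H3K4me3 peak at a TSS in any library, and neither had the 14 markers of other tissues.

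The chemoattractant receptors lay in a gene cluster of chromosome 3. CCR3, the eotaxin receptor, had 2140 and 2837 bp of H3K4me3 (chr3:46283767-46286671) and H3K27ac of 898 and 2905 bp after ATRA against 0 and 426 bp in controls. CCRL2, an atypical receptor that binds chemerin, had 1116 and 407 bp (chr3:46448637-46449752), with 825 and 1116 bp of H3K27ac after ATRA and 154 and 0 bp in controls. The ATRA and control values of H3K27ac did not overlap at either gene.

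Among adhesion genes, CEACAM4 had 3092 and 1702 bp of H3K4me3 (chr19:42130727-42133818), with 676 and 2102 bp of H3K27ac after ATRA and none in controls. ITGAX, the integrin alpha chain CD11c, had 1942 and 954 bp (chr16:31365999-31367940), with 1942 and 1552 bp of H3K27ac after ATRA and 49 and 1094 bp in controls. Both were covered further in ATRA replicate 1, and CEACAM4 alone lacked control H3K27ac.

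CLEC4E, the lectin Mincle, had 2295 bp of H3K4me3 in ATRA replicate 1 and 257 bp in replicate 2 (chr12:8692297-8694591). Its H3K27ac was 0 and 893 bp after ATRA and absent from controls. TLR1, a partner of TLR2, had 2443 and 1478 bp of H3K4me3 (chr4:38804574-38807016), and its H3K27ac of 0 and 2249 bp after ATRA overlapped the 0 and 1143 bp of the controls. Of the 10 TSS of TLR1, 1 lay under a peak in each control H3K4me3 library, outside this region. CSF1R, the receptor of macrophage colony-stimulating factor, had 1510 and 801 bp (chr5:149464979-149466488), and H3K27ac of 834 and 1510 bp after ATRA overlapped the 0 and 1481 bp of the controls.

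OAS3, an interferon-stimulated gene, was the one region of the 14 without H3K27ac in any library. It makes the activator of RNase L, and it had 1158 and 636 bp of H3K4me3 (chr12:113375948-113377202). Of the 26 TSS of OAS3, 20 lay under the peak of ATRA replicate 1 and 0 under that of replicate 2. GBP2 and GBP3, guanylate-binding proteins of a cluster on chromosome 1, had 780 and 558 bp (chr1:89591407-89592364) and 2177 and 1595 bp (chr1:89486818-89488994). H3K27ac at this GBP2 region was 0 and 425 bp after ATRA and none in controls, and at GBP3 it was 1462 and 1095 bp after ATRA and none in controls. Another ATRA-only region, in an intron of GBP2, had H3K27ac over 503 and 729 bp after ATRA and 0 and 729 bp in controls. The −log10 q of H3K4me3 in ATRA replicates 1 and 2 was 3.31 and 1.17 at the GBP2 TSS and 0.998 and 5.54 at GBP3. Over the 14 regions, 13 were covered further by H3K4me3 in ATRA replicate 1. H3K27ac was in both ATRA libraries in 10, and in both ATRA and neither control library in 4 (CEACAM1, CEACAM4, GBP3 and LILRA5). These shares were 57.8% and 28.9% over the 83 ATRA-only regions with a protein-coding TSS. Over all merged regions they were 58.0% and 4.85%.

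Further listed genes had an ATRA-only region in the gene body and none at a TSS. There were 12 of them (3.48% of 345), against 342 protein-coding genes (1.7%). The retinoid list had 5, which were named after their values were seen. Those of other lists were SERPINB1, NCF1, TLR4, LYN, CSF2RB, the mitosis gene PLK1 and KRT8, a marker of other tissues. In DHRS3, a retinaldehyde reductase, an intronic region 5799 bp from a TSS had 3288 and 967 bp of H3K4me3 (chr1:12667614-12670901) and 1472 and 2117 bp of H3K27ac after ATRA, with none in controls. In ALDH1A2, a retinaldehyde dehydrogenase, 550 and 785 bp were covered (chr15:58431505-58432289), with H3K27ac over 785 bp in both ATRA libraries and none in controls. The ALDH1A2 region was 481 bp from a TSS. The receptor genes had short regions, with 546 and 801 bp in RARA, 568 and 200 bp in RARG and 418 and 1049 bp in RXRB. A control H3K4me3 peak lay 1528 bp from the RARA region, 1868 bp from RARG and 628 bp from RXRB, and the RXRB region was 86 bp from a TSS. H3K27ac at the receptor genes was found in RARA alone, over 882 bp in ATRA replicate 1.

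H3K27ac was not used to choose the regions, so it could be compared across libraries. An H3K27ac peak overlapped 51.2% and 62.4% of the 606 regions in ATRA replicates 1 and 2 and 13.9% and 35.8% in control replicates 1 and 2. The means were 56.8% ± 7.93 (SD, n = 2) and 24.8% ± 15.5 (SD, n = 2), a difference of 31.9 percentage points. Both ATRA libraries were above both control libraries (exact two-sided permutation test over libraries, p = 0.33, the smallest that 2 against 2 allows). Within the replicate numbers, the differences were 37.3 and 26.6 points. The difference was 15.2 points without ATRA replicate 1 of H3K4me3 and 21 points without control replicate 1 of H3K27ac.

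A smaller difference in the same direction was found without the selection. Over all 19906 merged regions, the shares were 60.2% and 69.5% after ATRA and 47.5% and 61.8% in controls, a difference of 10.2 points (exact two-sided permutation test, p = 0.67). Relative to all merged regions, the ATRA-only regions were lower by 9.06 and 7.17 points in the ATRA libraries, and by 33.7 and 26 points in the control libraries. This contrast also had the smallest p possible (exact two-sided permutation test, p = 0.33). The median length was 1019 bp for ATRA-only and 3001 bp for all merged regions, and the part of length in this contrast was not tested. In control-only regions, with a median of 1209 bp, the mean was higher in controls, with 30.5% and 50.3% after ATRA and 44.4% and 65.6% in controls, and the groups overlapped (exact two-sided permutation test, p = 0.67).

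The difference was smaller when only H3K27ac peaks with a −log10 q of at least 5 were kept. Of each library's peaks, 15% and 16.9% in the ATRA libraries and 16.8% and 12.8% in the control libraries reached it. With these peaks alone, H3K27ac overlapped 7.76% and 8.42% of the ATRA-only regions after ATRA and 3.47% and 3.63% in controls. The direction was kept and the difference fell to 4.54 points, an alternative added after the data were seen. Over all merged regions the shares with such peaks were 9.21%, 11.9%, 8.2% and 8.34% in the same order. The filter removed most peaks of every library, so whether the weaker peaks in particular made the difference was not tested.

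By region, 108 of the 606 (17.8%) had H3K27ac in both ATRA and neither control library, beside 4.85% of all merged regions. This share was 1.16% with H3K27ac peaks of −log10 q of at least 5, 8.09% and 10.9% without ATRA or control replicate 1 of H3K4me3, and 27.4% or 35.5% without ATRA replicate 1 or control replicate 2 of H3K27ac. Another 111 had it in both ATRA libraries and 1 control library, beside 2004 of all 19906 merged regions. In all 4 libraries it was found in 76 (12.5%), beside 43.1% of all merged regions. It was absent from all libraries in 205 regions (33.8%), against 25.3% of all merged regions. The opposite change, H3K27ac in both control libraries and neither ATRA library, was found in 1 region (0.165%), beside 0.769% of all merged regions.

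By place, the difference was largest for regions with a TSS inside. Of the 109 regions with a TSS inside, 65.1% and 75.2% had H3K27ac after ATRA and 11% and 35.8% in controls, a difference of 46.8 points. For the 83 with a protein-coding TSS it was 61.4% and 75.9% against 7.23% and 31.3%, a difference of 49.4 points. Distal regions had 50.1% and 61.9% against 15% and 36.8%, a difference of 30.1 points, and regions with a TSS within 2 kb had 42.3% and 53.1% against 13.1% and 33.1%, a difference of 24.6 points. In each class both ATRA libraries were above both controls (exact two-sided permutation test, p = 0.33 each). The TSS class was also the longest, and the part of length in the order of the classes was not tested.

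The regions also differed by their distance from the H3K4me3 of control cells. Of the 292 regions more than 10 kb from a control H3K4me3 peak, 68.8% and 83.9% had H3K27ac after ATRA and 16.1% and 48.3% in controls. Of the 111 within 1 kb of one, 22.5% and 21.6% had it after ATRA and 9.91% and 17.1% in controls. The differences were 44.2 and 8.56 points (exact two-sided permutation test over libraries, p = 0.33 for each), and 13.4% of the far and 70.3% of the near regions had no H3K27ac in any library. Median lengths were 1124.5 and 840 bp.

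**Figure D4:**
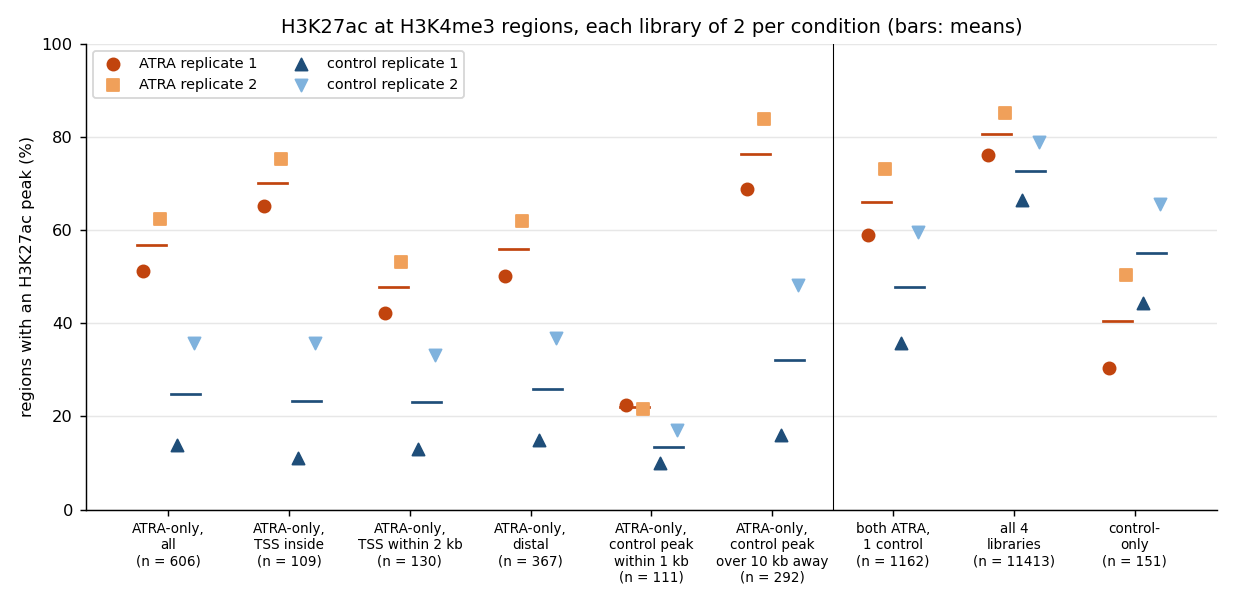
Percent of regions with an H3K27ac peak in each library (points) and the mean of the 2 libraries of a condition (bars), for the ATRA-only regions and their subsets left of the line and other H3K4me3 regions right of it. ATRA libraries sit above control libraries in each ATRA-only set, by 44.2 points on average more than 10 kb from control peaks and by 8.56 points within 1 kb.

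The regions were spread over all chromosomes. Chromosome 1 had 82 of them (4.04% of its merged regions) and chromosome 19 had 44 (2.59%), beside 3.04% of all merged regions. The share ran from 0.905% on chromosome 21, with 2 regions, to 4.7% on chromosome 13. Within 50 kb of another lay 75 regions (12.4%), in 36 groups of at most 3. No such share of other H3K4me3 regions is given here, so the count is a description. The groups of 3 were in PIWIL4 on chromosome 11, around MAPKAPK2 and DYRK3 on chromosome 1, and at SIGLEC16 and SIGLEC11 on chromosome 19. They were named after their values were seen.

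The zinc finger loci of chromosome 19 contributed 5 of the 606 regions. These genes encode DNA-binding proteins with arrays of C2H2 zinc fingers, many of them with a KRAB domain that recruits silencing complexes, and 263 protein-coding genes of this kind on the chromosome were considered. None of the 5 regions held a TSS or touched the last exon of its gene. The region in ZNF529 (chr19:37069616-37072173) was covered over 487 and 2558 bp in ATRA replicates 1 and 2. The others lay upstream of their gene, with 720 and 1469 bp near ZNF579 (chr19:56095169-56096817), 527 and 1100 bp near ZNF211 (chr19:58139705-58140804), 483 and 2013 bp near ZNF417 (chr19:58429095-58431107) and 200 and 1119 bp near ZNF549 (chr19:58034518-58035636). All were longer in replicate 2, lay between 50 and 1863 bp from a control H3K4me3 peak, and had no H3K27ac in any library.

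H3K4me3 at these loci differed between the ATRA libraries. Of the 602 merged regions at chromosome 19 zinc finger genes, 431 had a peak in ATRA replicate 2 alone and 8 in ATRA replicate 1 alone, while 145 had one in all 4 libraries. With ATRA replicate 2 as the only ATRA library, 438 zinc finger regions would have passed the rule, and with replicate 1 as the only one, 28. The other 39 ATRA-only regions of chromosome 19, 3.56% of the 1095 merged regions outside zinc finger loci, included those at LILRA5, CEACAM1, CEACAM4, SEMA6B, CYP4F3 and SIGLEC16.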

How the data were processed

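ChIP-seq of H3K4me3 and H3K27ac was performed in HL-60 cells with 2 ATRA and 2 control libraries per mark, grouped as labeled. Per the study's methods, the authors trimmed adapters (the submitters' processing notes name cutadapt), used Bowtie for alignment to hg19, and ran MACS2 in broad mode on every library by itself. Versions are not given in the sources used here. The deposited −log10 q of each peak was used as a filter and to describe regions. The deposited fold and −log10 p columns hold impossible values and were not used. Read depth is unknown, so precision rests on 2 libraries per condition.

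Peaks on chromosomes 1 to 22 and X were merged, 2 mitochondrial peaks were left out, and 0 peaks ran past a GRCh37 chromosome end. An overlap was at least 1 bp. TSS came from GENCODE release 44 mapped to GRCh37, and sequences from that genome. The only test was an exact two-sided permutation test over the 4 H3K27ac libraries. The regions, gene lists and naming rule were chosen with earlier results of these data known. The rule named the 15 protein-coding promoter regions and 6 distal regions with the longest stretch shared by both ATRA libraries, regions at listed genes, zinc finger regions of chromosome 19 and regions at the edges of the selection. Deposited peak names carry a tag that libraries of equal number have in common, and their deviations from the condition means correlated over 19906 regions (Pearson r = 0.213 for H3K4me3 and 0.513 for H3K27ac), so the comparison was repeated within the numbers. Symbols absent from the annotation left 345 of 347 listed genes. Scripts were tested on simulated data. Python 3.11.15, numpy 2.4.6, pandas 2.3.3, scipy 1.17.1 and matplotlib 3.10.9 were used. Alternatives were a −log10 q of at least 5, other merging and overlap rules, other TSS sets and distances, the replicate block and leaving out each library. Some items that the naming rule covers are left out and not reported here.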

Additional observations from a re-analysis of the deposited data

How the results depend on the processing

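The difference in H3K27ac share between ATRA and control libraries kept its sign under every alternative run, from 15.2 to 42.9 points when a library was left out, 2.31 points with a −log10 q of at least 5 on both marks and 21.7 points relative to all merged regions. With the replicate block it is 31.9 points by construction, since the mean of the differences within numbers equals the difference of the means. The number of regions was 628 with that threshold, 495 more than 1 kb from control peaks, 479 with peaks merged over 1 kb, and 282 where the ATRA libraries shared 50% of the region. It was 635 to 2904 when an H3K4me3 library was left out, and with the replicate block, which compares 1 ATRA with 1 control library, it averaged 3481 (2388 and 4574). The share with a TSS inside was 28.8% at the stricter threshold, 23% with 50% shared, 13.7% for protein-coding TSS, 10.0% with the replicate block and 8.26% to 21.4% without a library. The distal share was 55.9%, 54.3%, 70.8%, 65.1% and 59.8% to 67.6% in the same order, and 69.5% or 35.0% with 1 or 5 kb in place of 2 kb. The share with H3K27ac in both ATRA and neither control library was 0.955% at the stricter threshold on both marks, 12.1% with it on H3K4me3 alone and 1.16% on H3K27ac alone, 21.2% more than 1 kb from control peaks, 21.9% with merging over 1 kb, 21.1% where 50% of the region was acetylated, and 8.09% to 35.5% without a library. Zinc finger regions of chromosome 19 numbered 0 where 50% was shared and 1 inside gene bodies alone, and 6 to 438 without a library. The median shared stretch was 608.5 bp at the stricter threshold and 671 bp with 50% shared. It was 559 and 413 bp without control replicate 1 or 2 of H3K4me3. With 1 ATRA library left no shared stretch exists, so the 562 and 539 bp without ATRA replicate 1 or 2 describe that library alone. The cause of these shifts was not tested, except that a rule with 1 library per condition asks for fewer agreeing libraries. The thresholds on H3K4me3 or H3K27ac alone, and the strict H3K27ac count without an H3K27ac library, were added after the data were seen. Peak positions without counts limit what can be said of any single region.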
